A study of Rattus norvegicus with 18 samples.

Results

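Thyroglobulin (gene symbol Tg) was followed across both cell lines and all 3 times of the series. The platform annotation gave the single symbol Tg to 4 probe sets, M35965_at, rc_AI639428_at, X02318_at and X02318_g_at, and all 4 were kept, of 8740 probe sets tested for 4736 named genes. A probe set is a group of short oligonucleotides on the array that reads 1 stretch of transcript. X02318_at and X02318_g_at were designed from the same source sequence, so they are not independent measurements. The probe set with the highest mean over all arrays, X02318_g_at, stands for the gene where 1 value is needed. The GRCr8 RefSeq table lists 1 Tg gene with 3 transcripts, and no genome position or exon of the probe sets was used here.

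Thyroglobulin is the large secreted glycoprotein of thyroid follicular cells and the scaffold on which thyroid hormone is made. It is folded in the endoplasmic reticulum by chaperones and disulfide isomerases, secreted into the follicle, iodinated on tyrosines, taken back into the cell and cut by lysosomal proteases to free the hormones. Its gene is a classic marker of thyroid differentiation, driven by the transcription factors PAX8, NKX2-1 and FOXE1, and thyroid-stimulating hormone (TSH) acts on the thyrocyte through a receptor that raises cyclic AMP.

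The samples were 2 established rat thyroid lines on 1-colour Affymetrix arrays, with 3 arrays of biological replicates in each of 6 groups. FRTL5 cells are differentiated thyrocytes; they spent 5 days in 5H medium without TSH and then had no treatment (basal) or 30 min or 17 h of bovine TSH at 0.1 U/L. FRT/TSHR cells are de-differentiated and, as the name states, carry the TSH receptor; they grew in Coon's modification of Ham's F12 and had no treatment or 30 min or 17 h of TSH at 1 U/L. All cells were without serum for 12 h before stimulation. Whether FRT/TSHR is 1 clone is not stated in the labels used here. Line, medium and TSH dose differed together and cannot be told apart. The labels name no untreated cells kept for 30 min or 17 h, so time and TSH cannot be told apart either. Values are log2 RMA signals, in which a step of 1 is a doubling, and a difference in bulk RNA cannot separate fewer expressing cells from less RNA per cell.

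Values in the table ran from 2.61 to 13.58, and array medians lay between 5.47 and 5.59. The closest of all array pairs correlated at r = 0.996 with at most 0.0229% of values identical, so every array was counted once. The arrays numbered 1 of the 3 FRTL5 groups stood apart in 2 of 3 control genes: the beta-actin 3' signal exceeded the 5' signal by 1.13 to 1.22 (log2), against -0.14 to 0.28 on the other 15 arrays, and the GAPDH difference was 0.55 to 0.63 against 0.03 to 0.30. The hexokinase difference overlapped (1.20 to 1.47 against 0.88 to 1.41). Several results for Tg, though not all, are therefore given with and without the arrays numbered 1. Mean signals of markers of other cells lay in like ranges in FRTL5 and FRT/TSHR arrays, 4.94 to 5.07 and 4.79 to 5.00 for 7 of 9 C cell genes, 5.05 to 5.31 and 5.10 to 5.32 for 4 of 8 endothelial genes, 5.38 to 5.50 and 5.35 to 5.69 for 5 of 8 leukocyte genes, and 5.04 to 5.33 and 4.93 to 5.11 for 8 fibroblast genes. Single markers did differ between the lines at a limma adjusted p under 0.05. At basal 1 C cell and 1 fibroblast gene were lower in FRT/TSHR and 0 higher, where 25.5% of all probe sets were called. At 30 min 1 C cell gene was lower, and 1 endothelial and 1 leukocyte gene were higher. At 17 h 1 C cell and 1 leukocyte gene were lower and 1 leukocyte gene was higher. The part of such other cells in the Tg results was not tested.

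The first question was how Tg differed between the differentiated and the de-differentiated line. On every FRTL5 array every Tg probe set read above every FRT/TSHR array, before and after TSH. X02318_g_at read 10.40, 11.64 and 11.58 on the basal FRTL5 arrays numbered 1, 2 and 3, and 4.24, 3.95 and 4.30 on the basal FRT/TSHR arrays. X02318_at read 9.31, 10.80 and 10.56 in basal FRTL5 and 4.92, 4.80 and 5.11 in basal FRT/TSHR. Both probe sets were lower in FRT/TSHR on all 3 arrays, with no overlap and with the FRTL5 array numbered 1 nearest to the other line. M35965_at read 8.63, 9.65 and 10.12 in basal FRTL5 and 3.68, 3.93 and 3.81 in basal FRT/TSHR. The fourth probe set, rc_AI639428_at, read 5.23, 8.80 and 9.73 in basal FRTL5 and 3.83, 3.93 and 3.96 in basal FRT/TSHR, so its FRTL5 arrays spread far more than those of the other probe sets while still lying above all FRT/TSHR arrays.

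**Figure D1:**
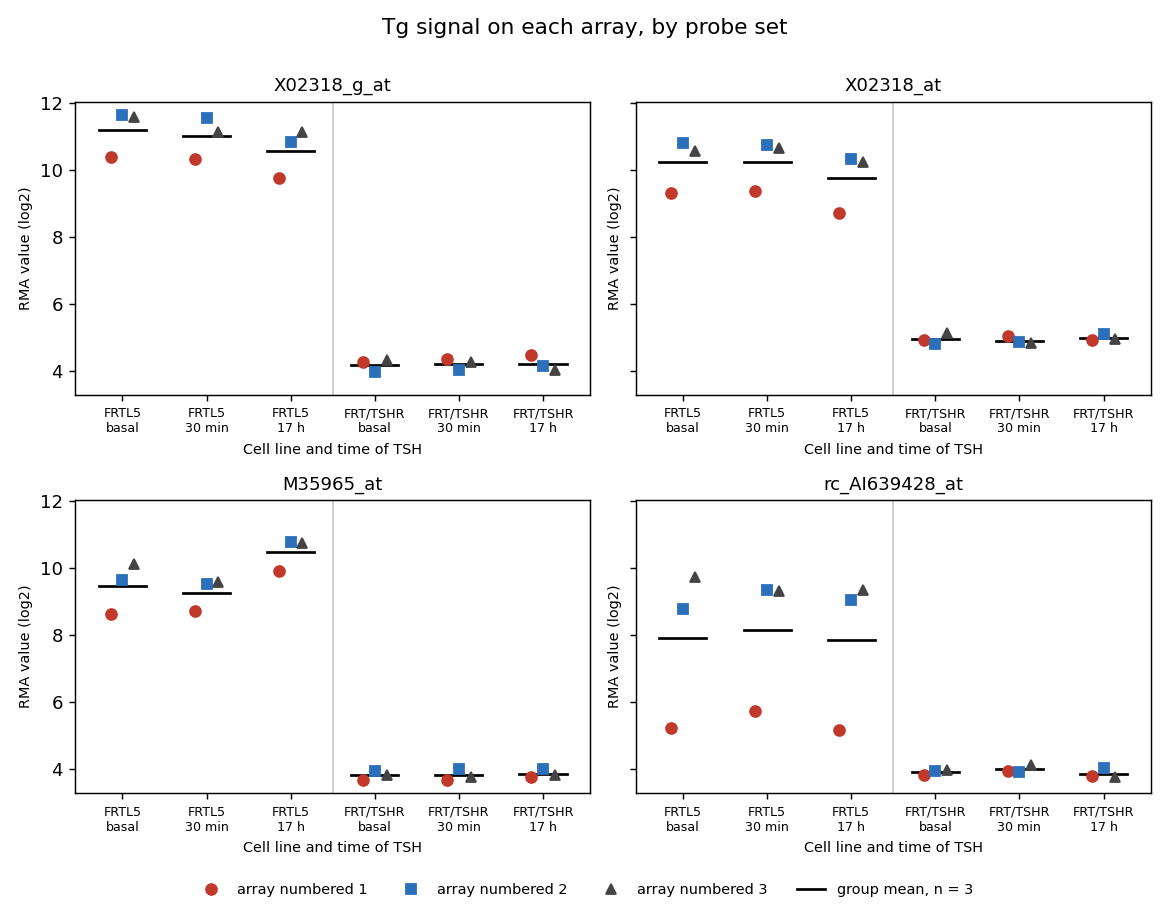
RMA signal (log2, vertical axis) of the 4 Tg probe sets on each of 18 arrays, by line and time of TSH. Symbols give the array number and bars the mean of 3 arrays; every FRTL5 array lies above every FRT/TSHR array, and the FRTL5 arrays numbered 1 are the lowest of their group in all panels.

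In the limma fit across all probe sets, X02318_g_at was 132-fold lower in basal FRT/TSHR than in basal FRTL5 (log2 difference -7.04 ± 0.37 SE, 95% interval -7.82 to -6.26, Benjamini-Hochberg adjusted p = 4.7e-10). By size this was the second of all 8740 differences, at rank 2. M35965_at was 50.6-fold lower (-5.66 ± 0.32, adjusted p = 1.1e-09, rank 9) and X02318_at 38.8-fold lower (-5.28 ± 0.43, adjusted p = 1.0e-07, rank 13). rc_AI639428_at was 16.1-fold lower with a much wider error (-4.01 ± 1.15, adjusted p = 0.016, rank 43). All 4 Tg probe sets were called lower at an adjusted p under 0.05, where 12.2% of all probe sets were, and all 4 had groups that did not overlap, where 19.5% of all probe sets were lower in that way. Without the arrays numbered 1 the differences were -7.48, -6.01, -5.73 and -5.32 for X02318_g_at, M35965_at, X02318_at and rc_AI639428_at, with adjusted p-values from 2.1e-10 to 2.3e-08. The call for rc_AI639428_at was lost without basal FRTL5 array 2 (-3.57, adjusted p = 0.064) and without array 3 (-3.11, adjusted p = 0.089). Whether the FRT/TSHR signals of 3.68 to 5.11 stood above background was not measured, since no detection call or scanner file was used here, so the folds compare signals and give no order of the probe sets by true change.

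The line difference was also present after TSH. At 30 min it was -6.80 for X02318_g_at, -5.46 for M35965_at, -5.35 for X02318_at and -4.16 for rc_AI639428_at, and all 4 were called lower, as were 11.4% of all probe sets. The groups again did not overlap, as for 16.5% of all probe sets with FRT/TSHR lower. At 17 h M35965_at read 99.4-fold lower in FRT/TSHR (-6.63 ± 0.32, adjusted p = 1.9e-10, rank 3), and X02318_g_at 82.5-fold lower (-6.37 ± 0.37, adjusted p = 1.7e-09, rank 4). X02318_at differed by -4.78 (adjusted p = 4.3e-07) and rc_AI639428_at by -3.99 (adjusted p = 0.020), where 8.94% of all probe sets were called lower and 17.6% were lower with no overlap. The rc_AI639428_at call at 17 h was lost without FRTL5 array 2 (adjusted p = 0.090) or 3 (adjusted p = 0.099) and without FRT/TSHR array 1 (adjusted p = 0.054) or 3 (adjusted p = 0.059), and at 30 min without FRTL5 array 2 (adjusted p = 0.071) or 3 (adjusted p = 0.068). Without the arrays numbered 1 the rc_AI639428_at differences were -5.34 at 30 min and -5.30 at 17 h (adjusted p = 2.5e-08 and 2.7e-08).

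The measured basal line difference in signal varied between probe sets of the gene. It was read from the difference between 2 probe sets on each array, in a limma fit over all 3281 pairs of probe sets that share 1 gene symbol (1565 genes), an analysis added after the data had been seen. The drop of X02318_g_at in FRT/TSHR exceeded that of M35965_at by 1.38 ± 0.23 (log2, adjusted p = 0.00065) and that of X02318_at, of the same source sequence, by 1.76 ± 0.17 (adjusted p = 2.7e-06). It exceeded that of rc_AI639428_at by 3.03 ± 0.83 (adjusted p = 0.025). On the basal FRTL5 arrays numbered 1, 2 and 3, rc_AI639428_at minus X02318_g_at was -5.17, -2.84 and -1.85, so the array numbered 1 adds to this excess. Of all pairs 11.1% were called in this comparison. As the FRT/TSHR signals were not shown to stand above background, these values do not show that the line difference of the transcript was unequal along the gene.

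The next question was what 30 min of TSH changed in FRTL5. No Tg probe set differed beyond the spread between arrays. At 30 min X02318_g_at read 10.32, 11.55 and 11.13 on the arrays numbered 1, 2 and 3, M35965_at 8.72, 9.52 and 9.60, X02318_at 9.37, 10.73 and 10.64, and rc_AI639428_at 5.73, 9.36 and 9.34. Every 30 min group overlapped its basal group. The differences from basal were -0.20 ± 0.37, -0.19 ± 0.32, 0.03 ± 0.43 and 0.22 ± 1.15, each with a limma adjusted p of 1.00. For X02318_g_at the 95% interval ran from -0.98 to 0.57. In this comparison 0.24% of all probe sets were called, all of them higher. With the replicate number as a block the 4 adjusted p-values were 0.83, 0.80, 0.98 and 0.86.

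At 17 h of TSH in FRTL5 the Tg probe sets moved in different directions. M35965_at read 9.93, 10.80 and 10.76 on the arrays numbered 1, 2 and 3, each above the basal array of the same number, by 1.29, 1.15 and 0.64. X02318_g_at read 9.76, 10.83 and 11.12, each below its basal array, with differences of -0.64, -0.81 and -0.46. X02318_at read 8.70, 10.32 and 10.24, with differences of -0.60, -0.47 and -0.32. rc_AI639428_at read 5.16, 9.05 and 9.34 and showed no common direction, with differences of -0.07, 0.25 and -0.39. The 17 h and basal ranges overlapped for all 4 probe sets. Among the arrays numbered 2 and 3 they overlapped for rc_AI639428_at and not for the other 3. The share of all probe sets without overlap in this smaller split was not counted, so no change is read from it.

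In the fit without a block no Tg probe set was called at 17 h, where 3.56% of all probe sets were. The difference was 1.03 ± 0.32 for M35965_at (2.04-fold, adjusted p = 0.103), -0.64 ± 0.37 for X02318_g_at (1.56-fold lower, adjusted p = 0.555), -0.47 ± 0.43 for X02318_at (adjusted p = 0.783) and -0.07 ± 1.15 for rc_AI639428_at (adjusted p = 0.991). Same-numbered arrays of a line deviated together, and in the limma fit with the replicate number as a block 3 of the 4 were called, where 9.92% of all probe sets were. M35965_at was then higher, as were 4.15% of all probe sets (1.03 ± 0.11, 95% interval 0.78 to 1.27, adjusted p = 0.00012), and X02318_g_at (-0.64 ± 0.13, interval -0.91 to -0.36, adjusted p = 0.0059) and X02318_at (-0.47 ± 0.11, interval -0.70 to -0.24, adjusted p = 0.012) were lower, as were 5.77%. rc_AI639428_at was not called with the block either (adjusted p = 0.86). Without the arrays numbered 1, and with no block, M35965_at was called (0.89 ± 0.16, adjusted p = 0.010) and X02318_g_at (-0.63 ± 0.18, adjusted p = 0.077) and X02318_at (-0.40 ± 0.14, adjusted p = 0.17) were not. M35965_at was also called without basal array 3 (1.35, adjusted p = 0.033) or 17 h array 1 (1.31, adjusted p = 0.042).

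**Figure D2:**
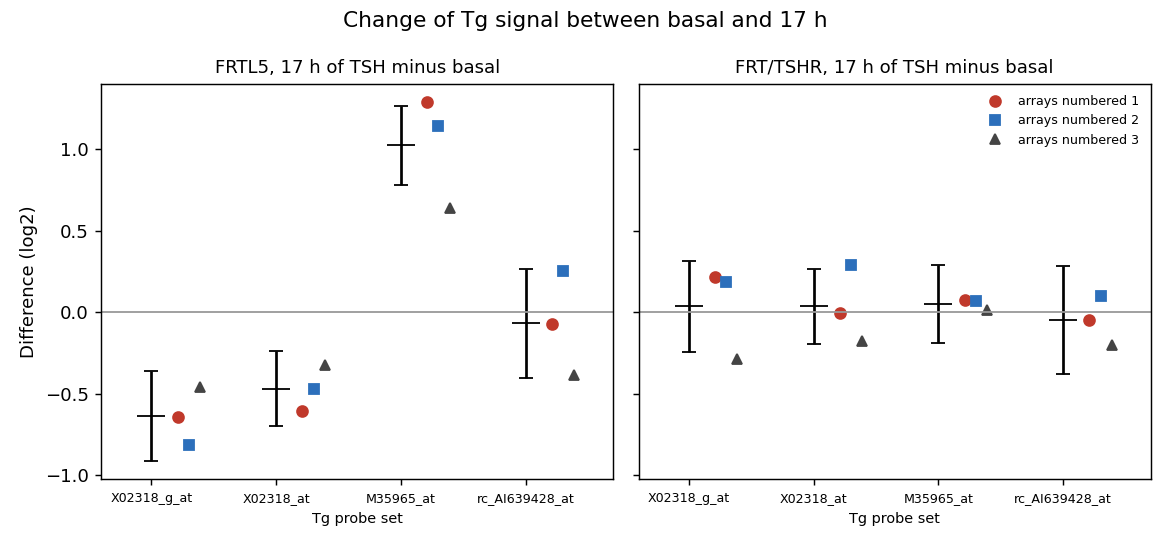
Change of each Tg probe set between basal and 17 h of TSH (log2 difference, vertical axis) in FRTL5 (left) and FRT/TSHR (right). Points are differences between arrays of the same number, dashes the mean and error bars the 95% interval of the limma fit with the replicate block; in FRTL5 M35965_at lies above 0 and both X02318 probe sets lie below 0 for all 3 numbers, and in FRT/TSHR all intervals include 0.

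Between 30 min and 17 h of TSH in FRTL5, M35965_at rose on every array number, by 1.21, 1.28 and 1.16, and the 3 arrays at 17 h lay above the 3 at 30 min. The limma difference was 1.22 ± 0.32 (adjusted p = 0.041), where 1.86% of all probe sets were called higher and 8.52% had 17 h arrays all above the 30 min arrays. The block gave an adjusted p of 2.8e-05 and the arrays without number 1 an adjusted p of 0.0010. The call without a block was lost on leaving out 30 min array 1 (0.94, adjusted p = 0.16), 2 (adjusted p = 0.078) or 3 (adjusted p = 0.055) or 17 h array 2 (adjusted p = 0.16) or 3 (adjusted p = 0.17), and in a fit to the 2 groups alone (adjusted p = 0.11). X02318_g_at differed by -0.43 ± 0.37 (adjusted p = 0.799) and X02318_at by -0.49 ± 0.43 (adjusted p = 0.810). With the block, in which 10.5% of all probe sets were called, both were lower (adjusted p = 0.046 and 0.0077). The value of rc_AI639428_at was -0.29 (adjusted p = 0.984, and 0.32 with the block). This comparison and that of 17 h with basal share the 17 h arrays.

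The disagreement between Tg probe sets was itself larger than the spread between arrays. On the basal FRTL5 arrays numbered 1, 2 and 3, M35965_at minus X02318_g_at was -1.77, -1.99 and -1.46, at 30 min -1.61, -2.04 and -1.54, and at 17 h 0.17, -0.03 and -0.36. All 3 values at 17 h lay above all 6 earlier ones. M35965_at minus X02318_at was -0.67, -1.14 and -0.44 at basal, -0.66, -1.21 and -1.05 at 30 min, and 1.22, 0.48 and 0.52 at 17 h, again with no overlap. Between basal and 17 h 8.5% of all pairs of probe sets of 1 gene did not overlap. At basal the array numbered 1 lay between the other 2 for both differences. At 30 min it lay between them for M35965_at minus X02318_g_at and was the highest for M35965_at minus X02318_at. At 17 h it was the highest for both differences. For each probe set alone it was the lowest of its group at every time.

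**Figure D3:**
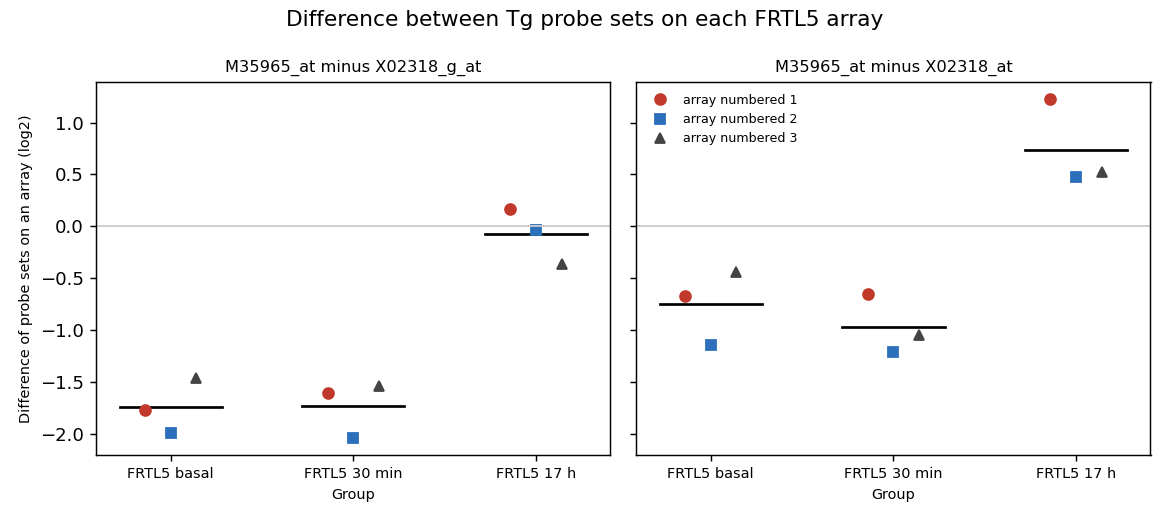
Difference between M35965_at and each X02318 probe set of Tg (log2, vertical axis) on every FRTL5 array, by time of TSH; symbols give the array number and bars the mean of 3 arrays. In both panels the 3 arrays at 17 h lie above all basal and 30 min arrays.

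Over the 3281 pairs of probe sets of 1 gene, the shift of M35965_at against X02318_g_at between basal and 17 h was the largest (1.66 ± 0.23, adjusted p = 0.0059, rank 1) and that of M35965_at against X02318_at came next (1.49 ± 0.22, adjusted p = 0.0063, rank 2), where 0.0914% of pairs were called. With the block, in which 2.38% of pairs were called, the adjusted p-values were 0.00011 and 0.00017. An exact two-sided permutation test of 3 against 3 arrays gave p = 0.1 for each shift, the smallest it allows. Without the arrays numbered 1 the shifts were 1.53 (adjusted p = 0.036) and 1.29 (adjusted p = 0.041). The call against X02318_at was lost without basal array 2 (1.30, adjusted p = 0.062). From 30 min to 17 h the same shifts were 1.65 ± 0.23 (adjusted p = 0.0013) and 1.71 ± 0.22 (adjusted p = 0.00088), where 0.457% of pairs were called. The shift against rc_AI639428_at was 1.09 ± 0.86 from basal to 17 h (adjusted p = 0.967), and it was called with the block (adjusted p = 0.00085). X02318_at and X02318_g_at, of 1 source sequence, shifted against each other by 0.17 ± 0.17 (adjusted p = 0.967). Pairs of 1 gene share arrays and probe sets, so they are not independent. Whether the probe sets read different transcripts of the gene was not tested.

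In FRT/TSHR no change of Tg with TSH was detectable. X02318_g_at read 4.36, 4.02 and 4.24 at 30 min and 4.46, 4.13 and 4.02 at 17 h, and M35965_at 3.68, 4.0 and 3.77 at 30 min and 3.75, 4.0 and 3.83 at 17 h. X02318_at read 5.02, 4.86 and 4.82 at 30 min and 4.92, 5.08 and 4.93 at 17 h, and rc_AI639428_at 3.95, 3.90 and 4.11 and then 3.78, 4.04 and 3.76. All groups overlapped. From basal to 17 h X02318_g_at differed by 0.04 ± 0.37 (limma adjusted p = 1.00), with a 95% interval of -0.74 to 0.81, and of -0.24 to 0.31 with the block. The other 3 probe sets had block intervals of -0.19 to 0.29 (M35965_at), -0.19 to 0.26 (X02318_at) and -0.38 to 0.29 (rc_AI639428_at). These intervals bound the change in signal. They do not bound that of Tg RNA, as the signals were not shown to stand above background. In each of the 3 FRT/TSHR comparisons limma called 0 of 8740 probe sets, with and without the block, while without it 208 (30 min against basal), 108 (17 h against basal) and 179 (17 h against 30 min) had an unadjusted p under 0.05, none of them a Tg probe set.

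The difference of the 17 h change between lines was tested as an interaction. The FRT/TSHR signals were not shown to stand above background, so a change of Tg RNA there may not have been visible. For M35965_at the FRT/TSHR change minus the FRTL5 change was -0.97 ± 0.45 (adjusted p = 0.577), and with the block -0.97 ± 0.16 (adjusted p = 0.0052), where 0.789% of all probe sets were called without the block and 4.18% with it. Without the arrays numbered 1 it was -0.85 ± 0.23 (adjusted p = 0.16). For X02318_g_at the interaction was 0.67 ± 0.52 (adjusted p = 0.952, and 0.057 with the block), for X02318_at 0.50 (adjusted p = 0.998, and 0.086 with the block) and for rc_AI639428_at 0.02. At 30 min no Tg probe set was called, where 0.0343% of all probe sets were.

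Over the 6 groups, every Tg probe set had the 3 FRTL5 groups above the 3 FRT/TSHR groups. Within FRTL5 the order of the means for X02318_g_at was basal (11.21 ± 0.70, SD, n = 3), 30 min (11.004 ± 0.62) and 17 h (10.57 ± 0.72). No difference between neighbours in this order was called in the fit without the block. For M35965_at the order was 17 h (10.49 ± 0.49), basal (9.47 ± 0.76) and 30 min (9.28 ± 0.49). Neither the difference of 17 h and basal nor that of basal and 30 min was called without the block. For X02318_at 30 min and basal (10.25 ± 0.76 and 10.22 ± 0.80) came before 17 h (9.75 ± 0.91). For rc_AI639428_at the means were 8.14 ± 2.09, 7.92 ± 2.38 and 7.85 ± 2.34 at 30 min, basal and 17 h, and no difference between them was called. Its 95% intervals were wide, at -2.52 to 2.38 for 17 h minus basal and -2.22 to 2.67 for 30 min minus basal. In FRT/TSHR the 3 means of each probe set lay within their spread, 4.17 to 4.21 for X02318_g_at and 3.81 to 3.86 for M35965_at.

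Within FRTL5 the Tg signal also differed by array number. The mean of the 3 arrays numbered 1 minus that of the other 6 was -3.90 for rc_AI639428_at (5.37 against 9.27), the lowest of all 8740 probe sets (rank 1). The same difference was -1.42 for X02318_at (rank 35 from the lowest), -1.15 for X02318_g_at (rank 80) and -0.98 for M35965_at (rank 124), against a median of 0.01 over all probe sets, of which 118 were below -1. In FRT/TSHR the arrays numbered 1 differed from the others by -0.10, 0.02, 0.24 and -0.19 for the same 4 probe sets. The low FRTL5 arrays are those with the high beta-actin 3' to 5' difference given above. Whether this difference has a part in the low Tg signal was not tested.

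**Figure D4:**
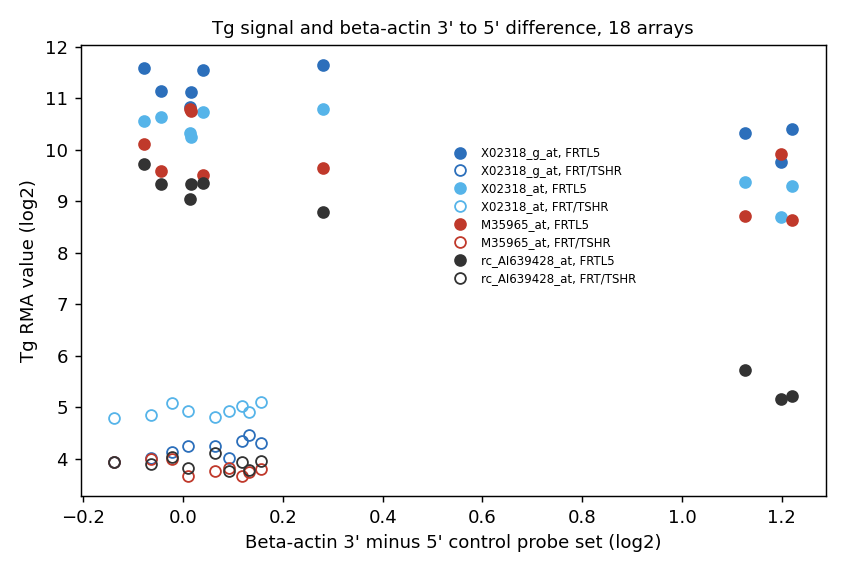
Tg signal (log2 RMA value, vertical axis) against the beta-actin 3' minus 5' control difference (log2, horizontal axis) on 18 arrays, with 1 colour per probe set, filled for FRTL5 and open for FRT/TSHR. The 3 FRTL5 arrays with differences of 1.13 to 1.22 hold the lowest rc_AI639428_at values of that line, 5.16 to 5.73 against 8.80 to 9.73 on the other 6.

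The genes whose pattern was most like that of X02318_g_at were sought in 2 ways. Over the 6 group means, each centred on its own mean, the closest were Sdc2, a cell-surface heparan sulfate proteoglycan (root mean square difference 0.50), Cpq, a carboxypeptidase (0.51), Ndrg2 (0.82), the mitochondrial ADP/ATP carrier Slc25a4 (1.10) and the growth factor receptor Fgfr1 (1.16). Between basal and 17 h in FRTL5, values that entered this choice, X02318_g_at differed by -0.64 (log2). Sdc2 differed by -0.35, Cpq by -1.08, Ndrg2 by -0.69, Slc25a4 by 0.48 and Fgfr1 by -0.02. Over the 9 FRTL5 arrays their Pearson r with X02318_g_at was 0.14, 0.44, 0.01, -0.65 and 0.69. Closeness over the group means thus did not mean a like pattern within FRTL5, where Slc25a4 went the other way. Over the 9 FRTL5 arrays the highest Pearson correlations with X02318_g_at were those of Vegfa (r = 0.995), Ivd (0.980), Srpk2 (0.977), Syngr2 (0.975) and Cd151 (0.971). These arrays share the split between number 1 and the rest, and over the 6 arrays without number 1 the same r values were 0.977, 0.884, 0.912, 0.854 and 0.868. Of these 5 genes 0 were among the closest 5 over those 6 arrays, and 1 was among the closest 5 by Spearman's rho over 9.

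The genes around thyroglobulin in its life cycle were read from 6 lists with 62 measured genes in all, each gene represented by its brightest probe set. Between the basal lines 25.5% of all probe sets were called. Against the median line difference of -0.04 over all probe sets (FRT/TSHR basal minus FRTL5 basal), the 7 measured of 9 thyroid transcription factors had a median of -1.21. As listed here these were Pax8, Nkx2-1 and Foxe1 together with Nfia, Nfib, Nfic and Nfix. Whether the latter are particular to the thyroid was not tested. Without the arrays numbered 1 all 7 were called, a count that takes higher and lower together. With all arrays 4 were called lower and none higher: Foxe1 (-1.89 ± 0.34, adjusted p = 0.00043), Nfia (-1.32 ± 0.16, adjusted p = 1.1e-05), Pax8 (-1.21 ± 0.23, adjusted p = 0.00066) and Nfix (-1.0 ± 0.23, adjusted p = 0.0037). Nkx2-1 was not called by its brightest probe set (-1.24 ± 0.50, adjusted p = 0.086) and was lower by the other (-3.82 ± 0.14, adjusted p = 6.3e-12). Beside these, the 4 Tg probe sets differed by -7.04 to -4.01. The other probe sets of the listed genes, 60 for 33 genes, gave 23 calls lower and 2 higher, the latter for Hspa5 and Nfib.

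Among the 12 measured of 14 genes of the TSH receptor and cyclic AMP pathway 3 were lower and 1 higher, with a median of -0.34; only 2 were called on leaving out basal FRTL5 array 3 or basal FRT/TSHR array 1 or 3. Gnas, the stimulatory G protein subunit, was lower (-0.86 ± 0.13, adjusted p = 8.1e-05). Probe sets of Tshr, the TSH receptor, disagreed: the brightest read 0.04 ± 0.15 (adjusted p = 0.91), while the other 3 were lower by -0.81, -2.15 and -3.96 (adjusted p = 0.010, 6.4e-09 and 1.1e-07). The platform probes rat sequence, and which species the introduced receptor comes from is not stated in the labels used here. Of 5 measured of 15 genes for iodide handling and hormone synthesis 2 were lower and 1 higher (median -0.03); the iodide transporter Slc5a5 was lower (-1.20 ± 0.18, adjusted p = 9.6e-05).

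For the folding and secretion of thyroglobulin 12 of 21 genes were measured, of which 1 was higher and 2 lower in FRT/TSHR (median 0.04). Hspa5, the main chaperone of the endoplasmic reticulum, was higher (1.40 ± 0.34, adjusted p = 0.0050) and the disulfide isomerase Pdia6 lower (-0.72 ± 0.12, adjusted p = 0.00031). For uptake and proteolysis 17 of 21 were measured, of which 8 were lower and 3 higher (median -0.16). The lysosomal proteases Ctsl (-2.22 ± 0.23, adjusted p = 1.9e-06) and Ctsb (-1.92 ± 0.18, adjusted p = 4.1e-07) and the receptor-associated protein Lrpap1 (-2.20 ± 0.21, adjusted p = 7.7e-07) were lower, and Lgals3, a galactose-binding lectin, was higher (5.30 ± 0.26, adjusted p = 1.9e-10). Of 9 measured of 16 other genes whose proteins hold thyroglobulin type-1 domains, 1 was called by its brightest probe set (median of the list -0.04). This was the epithelial adhesion gene Epcam, which was higher in FRT/TSHR (6.19 ± 0.11, adjusted p = 1.7e-15). Of the 8 other probe sets of that list 2 were called lower and 0 higher. They were rc_AI029920_s_at (-1.05, adjusted p = 2.8e-06) and rc_AI070577_at (-0.36, adjusted p = 0.018) of Igfbp5.

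**Figure D5:**
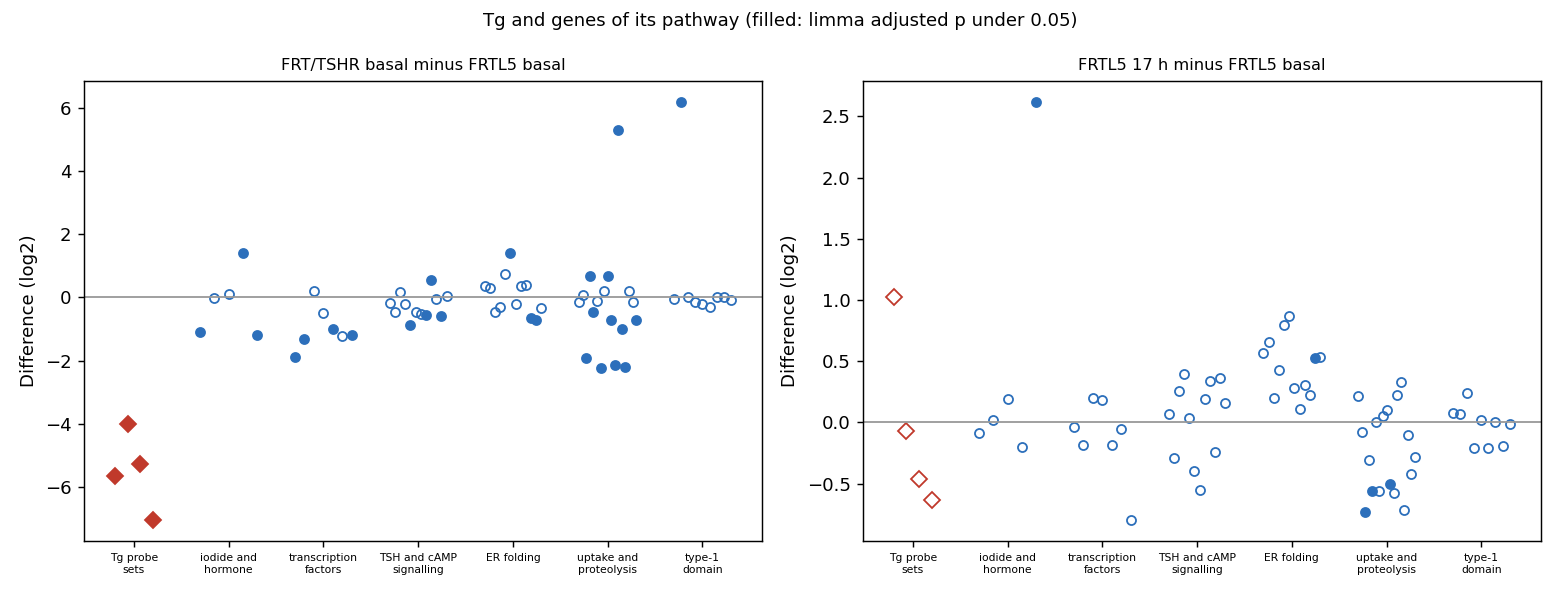
Log2 differences (vertical axis) of the 4 Tg probe sets (diamonds) and of the genes of 6 lists (circles, the brightest probe set of each), between the basal lines (left) and between 17 h and basal in FRTL5 (right); filled symbols have a limma adjusted p under 0.05 in the fit without a block. On the left the Tg probe sets lie below all listed genes, and on the right Slc5a5 lies above them all at 2.62.

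At 17 h of TSH in FRTL5, set beside Tg, the iodide transporter Slc5a5 rose 6.14-fold (2.62 ± 0.18, adjusted p = 1.9e-06), while the other 4 measured genes of its list were not called. Of all probe sets 1.64% were called higher and 1.92% lower. No thyroid transcription factor was called by its brightest probe set (0 of 7); Pax8 read -0.80 ± 0.23 (adjusted p = 0.072) and was lower with the block (adjusted p = 0.0018). It was called without the arrays numbered 1 (-0.66, adjusted p = 0.031), without basal array 1 (adjusted p = 0.040) and without 17 h array 3 (adjusted p = 0.046). The other Nkx2-1 probe set, X53858_at, was called lower (-0.61 ± 0.14, adjusted p = 0.024, and 0.013 with the block). That call was lost without the arrays numbered 1 (-0.33, adjusted p = 0.29) and without basal array 1 or 2 or 17 h array 1 or 3 (adjusted p up to 0.099). It was also lost in a fit to the 2 groups alone (adjusted p = 0.26). In the folding list Pdia6 rose (0.53 ± 0.12, adjusted p = 0.026), and the list median was 0.48 against 0.01 over all probe sets. With the block 4.15% of all probe sets were higher and 5.77% lower. In that fit 6 of 12 genes of the list were higher by their brightest probe set and none lower. Among these were Hspa5 (0.87, adjusted p = 0.036) and Hsp90b1 (0.80, adjusted p = 0.0031). Of the 16 other probe sets of the list, for 9 genes, 0 were called without the block. For Hspa5, S63521_i_at (1.11, adjusted p = 0.081 with the block) and S63521_r_at (0.18, adjusted p = 0.39 with the block) were not called in either fit. The Pdia6 call was lost without the arrays numbered 1 (adjusted p = 0.076), where 2 other genes of the list were called. It was kept without basal array 3 or 17 h array 1, but lost without each of the other 4 arrays (adjusted p up to 0.11). A fit to the 2 groups alone (adjusted p = 0.080) and a trended robust prior (adjusted p = 0.064) also lost it. In the uptake and proteolysis list 3 of 17 fell by their brightest probe set and none rose, Ctsb (-0.73 ± 0.18, adjusted p = 0.028), Lamp1 (-0.50 ± 0.12, adjusted p = 0.030) and Ctsh (-0.56 ± 0.15, adjusted p = 0.045), with a list median of -0.28. The adjusted p-values of these 3 were 0.11, 0.13 and 0.26 without the arrays numbered 1. In a fit to the 2 groups alone they were 0.078, 0.14 and 0.22. The Lamp1 call was also lost under quantile normalization (adjusted p = 0.22) and the Ctsh call under median centring (adjusted p = 0.062). With a trended robust prior the Lamp1 and Ctsh calls were lost (adjusted p = 0.074 and 0.078). On leaving out 1 array the Ctsb and Ctsh calls were kept without basal array 3 and the Lamp1 call without basal array 1, and each was lost without any of the other 5 arrays compared. With the block 4 of 17 were lower. Among the other probe sets of the list 3 of 15 were called lower: S85184_g_at of Ctsl (-0.80 ± 0.14, adjusted p = 0.0045) and rc_AA892810_at and Z11995cds_at of Lrpap1 (-1.19 and -0.77, adjusted p = 0.00031 and 0.0045). These 3 calls were kept without the arrays numbered 1 and in all 6 fits that left out 1 array. Of the 12 signalling genes and the 9 type-1 domain genes none was called by its brightest probe set, though with the block 1 signalling gene was higher and 1 lower. Other probe sets of 2 signalling genes were called, rc_AI060085_s_at of Tshr lower (-0.59, adjusted p = 0.025) and S66024_at of Crem, a cyclic AMP-responsive transcription factor, higher (0.45, adjusted p = 0.023). Both calls were lost without the arrays numbered 1 (adjusted p = 0.091 and 0.18) and in a fit to the 2 groups alone (adjusted p = 0.11 and 0.12). The Tshr call was also lost without basal array 2 or 17 h array 1 or 2, and the Crem call without any of the 6 arrays compared. At 30 min none of the 62 genes was called in FRTL5 by limma through its brightest probe set, and 2 had an unadjusted p under 0.05; 0 of the 60 other probe sets were called.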

How the data were processed

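The deposited table held log2 expression values that the authors had computed with RMA, per the submitters' processing notes; its version and settings are not given in the sources used here. Biotin-labelled cRNA came from 10 µg of total RNA, per the labels. The base of the logarithm was inferred from the range of the values. Of 8799 probe sets 59 controls were left out and 8740 tested, with no filter on low signal. The platform annotation named 1 gene for 7006 of them, several for 308 and none for 1426. No other column of sample values was present in the table (0 unused).

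With limma 3.58.1 in R 4.3.3, 6 group means were fitted to all 18 arrays (lmFit, eBayes, 12 residual degrees of freedom). Tests were two-sided, with Benjamini-Hochberg adjustment in each of 11 comparisons over all 8740 probe sets, and called at an adjusted p under 0.05. Errors of differences are standard errors. The number of arrays limits the precision.

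Labels number the replicates 1 to 3 in every group. Deviations from group means of same-numbered arrays correlated at 0.15 to 0.80 within FRTL5 and 0.16 to 0.62 within FRT/TSHR, above 0.1 in 9 of 9 pairs of each line, and at -0.22 to 0.42 between lines. Within FRTL5 differently numbered arrays overlapped the same-numbered ones, at -0.64 to 0.63 and above 0.1 in 6 of 18 pairs. Within FRT/TSHR they lay at -0.41 to -0.03, above 0.1 in 0 of 18. So the numbers were taken to pair arrays within a line, and the fit with line by replicate number as a block (8 residual degrees of freedom) is given where it changes a call within a line or between the changes of both lines. Between lines same-numbered arrays correlated above 0.1 in 17 of 27 pairs, against 10 of 54 for different numbers. This pairing was weaker than within a line, so comparisons between lines carry no block, apart from counts in the closing section. Same-numbered replicates are biological per the labels, and what they share is not stated there.

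Alternatives were the block, quantile normalization, median centring, a filter on low signal, a trended robust prior, only the groups compared, no arrays numbered 1, and each array left out in turn. The fit over pairs of probe sets was added after the data had been seen. Code was tested on simulated data. The Tg probe sets, the 6 pathway lists, the 4 marker lists and the comparisons were chosen with earlier results of these data known. Named genes were all Tg probe sets, the 5 closest by each likeness measure, up to 4 per list with the smallest p in each of the 17 h and basal line comparisons, and Tshr, Slc5a5, Pax8, Nkx2-1 and Foxe1; another gene of this rule is not reported here. Genes of the lists beyond these are named where a list call rests on them. No sequence is printed.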

Additional observations from a re-analysis of the deposited data

Results flagged for a closer look

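For the Tg probe set M35965_at the change between basal and 17 h of TSH differed between the lines in the limma fit with the replicate block, by -0.97 (FRT/TSHR change minus FRTL5 change, log2, adjusted p = 0.0052). All 3 same-numbered FRTL5 differences were positive, at 1.29, 1.15 and 0.64, and those of FRT/TSHR lay within the block interval of -0.19 to 0.29. Without the block the same difference did not pass (adjusted p = 0.577), nor did it without the block and the arrays numbered 1 (-0.85, adjusted p = 0.16). The other 3 probe sets did not pass with the block and had the opposite sign. They read 0.67 for X02318_g_at (adjusted p = 0.057), 0.50 for X02318_at (adjusted p = 0.086) and 0.02 for rc_AI639428_at (adjusted p = 0.99). Line, medium and TSH dose cannot be told apart here. As the FRT/TSHR signals were not shown to stand above background, a change of Tg RNA in that line may not have been visible.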

How the results depend on the processing

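For X02318_g_at 139 of 155 alternatives over 11 comparisons kept the direction and the side of the threshold, including all of those between the lines. With the replicate block 2 comparisons in FRTL5 passed, 17 h against basal (-0.64) and 17 h against 30 min (-0.43); the other calls of this probe set were the same with the block. The 14 others turned the direction of differences that were not called with all arrays. In FRT/TSHR, 17 h minus 30 min became 0.032 under quantile normalization and 0.00997 under median centring, 17 h minus basal became -0.053 without the arrays numbered 1, and 30 min minus basal of M35965_at became -0.032 and -0.020 under the same 2 scalings. The cause was not tested.

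Leaving out 1 array at a time gave, for FRTL5 30 min minus basal, -0.61 to 0.14 (X02318_g_at), -0.61 to 0.13 (M35965_at), -1.12 to 1.43 (rc_AI639428_at) and -0.43 to 0.47 (X02318_at). For FRTL5 17 h minus basal it gave -1.41 to 1.28 (rc_AI639428_at) and -0.92 to 0.060 (X02318_at), and for 17 h minus 30 min -1.50 to 1.05 and -0.93 to 0.032. For FRT/TSHR 30 min minus basal the ranges were -0.066 to 0.13 (X02318_g_at), -0.084 to 0.080 (M35965_at) and -0.12 to 0.039 (X02318_at). For FRT/TSHR 17 h minus basal they were -0.092 to 0.13 (X02318_g_at), -0.020 to 0.11 (M35965_at), -0.14 to 0.0015 (rc_AI639428_at) and -0.037 to 0.12 (X02318_at), and for 17 h minus 30 min -0.13 to 0.089 (X02318_g_at) and -0.029 to 0.14 (M35965_at). The line difference of the 30 min change ran from -0.095 to 0.65 (X02318_g_at), -0.12 to 0.62 (M35965_at), -1.35 to 1.20 (rc_AI639428_at) and -0.51 to 0.39 (X02318_at), and that of the 17 h change from -1.33 to 1.37 (rc_AI639428_at) and -0.023 to 0.96 (X02318_at). The brightest Tshr probe set ran from -0.075 to 0.10 between the basal lines.

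Counts of called probe sets moved more. For FRTL5 17 h against basal they were 311, 867 with the block, 96 with only those groups and 152 to 253 with 1 array left out. For 17 h against 30 min they were 368, 916, 189 and 145 to 270, and for 30 min against basal 21, 40, 2 and 12 to 44, with 52 without the arrays numbered 1. For the line difference of the 17 h change they were 69, 365, 22 and 33 to 83, and for that of the 30 min change 3, 8, 1 and 1 to 24, with 25 without the arrays numbered 1. In FRT/TSHR 2 were called without the arrays numbered 1 at 30 min against basal and 2 at 17 h against 30 min, where leaving out 1 array gave 0 to 8. Between the lines same-numbered arrays paired less closely than within a line. For the basal lines a block on the number alone called 6 of 7 thyroid transcription factors (4 without it) and 5 of 12 signalling genes (4 without it). The spread between 3 arrays a group limits what could be called, and no detection call was available to place the FRT/TSHR signals against background.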
